A study of Homo sapiens with 8 samples.

Results

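The 37 genes described here encode enzymes of the tricarboxylic acid (TCA) cycle, the pyruvate dehydrogenase subunits that feed it, subunits of respiratory chain complexes I to V, cytochrome c, and 2 regulators of mitochondrial biogenesis. IDH1 and MDH1, whose products are cytosolic, are counted with the cycle enzymes. All 37 genes were examined for binding of mTOR, the kinase of the nutrient-sensing pathway of that name, to chromatin of LNCaP cells. A peak belonged to a gene when the deposited annotation named that gene and placed the peak centre at most 50 kb from its transcription start site (TSS). Of the 125713 peaks listed on chromosomes 1 to 22, X and Y in the 4 lists, 88 met this rule, and 24 of the 37 genes had at least 1 of them. The 13 without a peak were IDH3B, FH, SDHA, SDHB, SDHC, NDUFA9, NDUFB8, NDUFS1, NDUFS3, NDUFV1, CYC1, ATP5F1A and ATP5F1C.

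LNCaP is an established, androgen-responsive human prostate cancer line with luminal features. Every group had spent 48 h without androgen, in 2% charcoal-stripped serum, before a treatment of 24 h. The 4 mTOR libraries came from cells with a hairpin against FoxA1 and 10 nM R1881 (shFoxA1 R1881), the same hairpin and 0.1% ethanol (shFoxA1 EtOH), empty vector and 10 nM R1881 (shEV R1881), and empty vector and 0.1% ethanol (shEV EtOH). R1881 is a synthetic androgen, and FoxA1 is a pioneer factor that opens chromatin for the androgen receptor. The sources used here do not say whether a hairpin line was 1 clone or a pool. Each group was 1 library, so no difference between groups had a replicate check and no p-value is given.

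In the TCA cycle, acetyl groups made from pyruvate are oxidised to carbon dioxide while electrons are loaded onto NAD and FAD. The respiratory chain passes those electrons through complexes I to IV to oxygen, and complex V uses the resulting proton gradient to make ATP. The prostate epithelium is known for a truncated cycle that exports citrate, and prostate cancer cells are known to oxidise citrate again. All 37 genes are nuclear, so their promoters can be bound by nuclear proteins although their products work mostly in the mitochondrion.

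The lists held 39570 peaks in shFoxA1 R1881, 35121 in shFoxA1 EtOH, 26074 in shEV R1881 and 24948 in shEV EtOH. The share of peaks whose centre lay in an annotated repeat was 62.0% in shFoxA1 R1881, 63.3% in shFoxA1 EtOH, 68.6% in shEV R1881 and 70.6% in shEV EtOH. No read totals accompany the lists, so depth is unknown, and a longer list may reflect depth as well as binding. The peak score is the authors' own value, and it is given with its percentile within its own list. A difference in score or rank between separate lists without replicates does not establish a change in binding. Of 8 prostate luminal genes, between 4 and 8 had a peak within 50 kb in a library, against at most 1 of 3 basal, at most 1 of 3 blood and at most 2 of 2 endothelial genes. These are binding sites, not expression, and they do not check cell identity or the knockdown.

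The promoters that carried mTOR peaks are shown first, as RefSeq gives them for GRCh38.p14, 5′ to 3′ on the gene's strand from 250 bases before to 50 bases after the start. The first set is the promoter windows, besides that of NDUFS3, which a peak overlapped in both shFoxA1 lists: MDH1 (chr2:63588713-63589012, plus strand), SUCLG1 (chr2:84459231-84459530, minus strand), TFAM (chr10:58385160-58385459, plus strand) and the upstream promoter of PPARGC1A (chr4:24472856-24473155, minus strand). Capitals mark a CACGTG E-box, found among these 4 windows in that of PPARGC1A, at -123.
MDH1: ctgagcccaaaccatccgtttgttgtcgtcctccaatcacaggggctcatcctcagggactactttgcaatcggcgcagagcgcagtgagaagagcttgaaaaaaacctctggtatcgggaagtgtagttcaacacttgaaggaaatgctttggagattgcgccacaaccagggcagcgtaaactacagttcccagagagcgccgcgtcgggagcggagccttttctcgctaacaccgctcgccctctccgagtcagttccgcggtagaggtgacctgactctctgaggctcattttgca
SUCLG1: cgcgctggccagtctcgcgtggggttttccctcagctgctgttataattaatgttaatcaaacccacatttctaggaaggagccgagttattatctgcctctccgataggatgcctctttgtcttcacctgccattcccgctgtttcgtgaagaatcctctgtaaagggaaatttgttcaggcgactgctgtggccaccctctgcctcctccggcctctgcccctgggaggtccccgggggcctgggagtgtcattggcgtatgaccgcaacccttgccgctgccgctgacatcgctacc
TFAM: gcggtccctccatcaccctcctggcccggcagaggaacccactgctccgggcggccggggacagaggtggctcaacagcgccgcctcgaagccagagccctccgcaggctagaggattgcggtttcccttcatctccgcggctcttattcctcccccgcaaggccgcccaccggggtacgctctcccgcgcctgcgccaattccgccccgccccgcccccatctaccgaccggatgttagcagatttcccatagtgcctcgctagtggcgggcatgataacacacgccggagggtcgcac
PPARGC1A: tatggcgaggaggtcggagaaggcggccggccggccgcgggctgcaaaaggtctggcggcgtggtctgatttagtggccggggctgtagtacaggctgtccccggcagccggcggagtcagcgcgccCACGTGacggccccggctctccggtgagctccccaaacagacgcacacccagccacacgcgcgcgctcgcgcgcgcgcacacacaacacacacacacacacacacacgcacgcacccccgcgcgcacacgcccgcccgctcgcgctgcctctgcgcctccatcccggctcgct

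The second set shows respiratory chain promoters whose window a peak overlapped, under any gene name, and which hold letters of NRF1 or ETS factors, known regulators of such promoters. The cycle gene MDH2, whose window also had a peak and ETS letters, is not shown. Capitals mark the ETS letters CCGGAAG and the NRF1 letters GCGCATGC on either strand. COX5B (chr2:97645812-97646111, plus strand) held NRF1 letters at -136 and ETS letters at -37 and -5. CYCS (chr7:25125211-25125510, minus strand) held NRF1 letters at -169. NDUFS3 (chr11:47578824-47579123, plus strand) held ETS letters at -102 and -83, and the peaks over it were named for its neighbour.
COX5B: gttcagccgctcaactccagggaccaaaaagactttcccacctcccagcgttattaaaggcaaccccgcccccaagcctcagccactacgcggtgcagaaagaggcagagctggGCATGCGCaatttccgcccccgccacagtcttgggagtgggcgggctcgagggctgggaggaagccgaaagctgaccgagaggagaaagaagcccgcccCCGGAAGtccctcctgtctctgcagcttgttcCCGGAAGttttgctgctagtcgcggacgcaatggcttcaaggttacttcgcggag
CYCS: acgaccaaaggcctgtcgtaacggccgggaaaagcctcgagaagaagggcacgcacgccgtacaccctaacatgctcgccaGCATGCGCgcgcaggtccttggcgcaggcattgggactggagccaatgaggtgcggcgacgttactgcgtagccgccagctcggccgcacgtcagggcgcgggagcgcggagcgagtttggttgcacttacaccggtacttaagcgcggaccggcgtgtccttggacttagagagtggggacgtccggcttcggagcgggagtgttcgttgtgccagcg
NDUFS3: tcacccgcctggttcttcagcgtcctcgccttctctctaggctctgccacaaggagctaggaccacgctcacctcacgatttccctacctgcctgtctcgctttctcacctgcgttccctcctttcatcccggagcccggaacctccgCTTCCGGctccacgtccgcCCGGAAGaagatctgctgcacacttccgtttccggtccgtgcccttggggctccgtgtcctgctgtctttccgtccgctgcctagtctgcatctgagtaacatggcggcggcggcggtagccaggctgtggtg

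Of the 37 genes, 15 in shFoxA1 R1881, 17 in shFoxA1 EtOH, 11 in shEV R1881 and 10 in shEV EtOH had a peak within 50 kb of the TSS. The shares were 40.5% (Wilson 95% interval 26.3 to 56.5) in shFoxA1 R1881, 45.9% (31.0 to 61.6) in shFoxA1 EtOH, 29.7% (17.5 to 45.8) in shEV R1881 and 27.0% (15.4 to 43.0) in shEV EtOH, where intervals cover counting error only. Among 20037 protein-coding genes the share was 51.6% in shFoxA1 R1881, 49.1% in shFoxA1 EtOH, 37.5% in shEV R1881 and 36.5% in shEV EtOH, inside the interval of the 37 genes in each library. The counts were higher in the libraries with the longer lists, and they are not a result about these genes.

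Peaks within 1 kb of the TSS, called promoter peaks here, were present at 10 of the 37 genes in shFoxA1 R1881, 11 in shFoxA1 EtOH, 3 in shEV R1881 and 3 in shEV EtOH. The shares were 27.0% (15.4 to 43.0) in shFoxA1 R1881, 29.7% (17.5 to 45.8) in shFoxA1 EtOH, 8.11% (2.8 to 21.3) in shEV R1881 and 8.11% (2.8 to 21.3) in shEV EtOH. Among all coding genes they were 26.8% in shFoxA1 R1881, 27.4% in shFoxA1 EtOH, 13.8% in shEV R1881 and 15.2% in shEV EtOH. The shares are again near the background in each library. In all, 17 genes had a promoter peak in some list: 10 in 1 list, 4 in 2 lists and 3 in 3 lists.

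**Figure D1:**
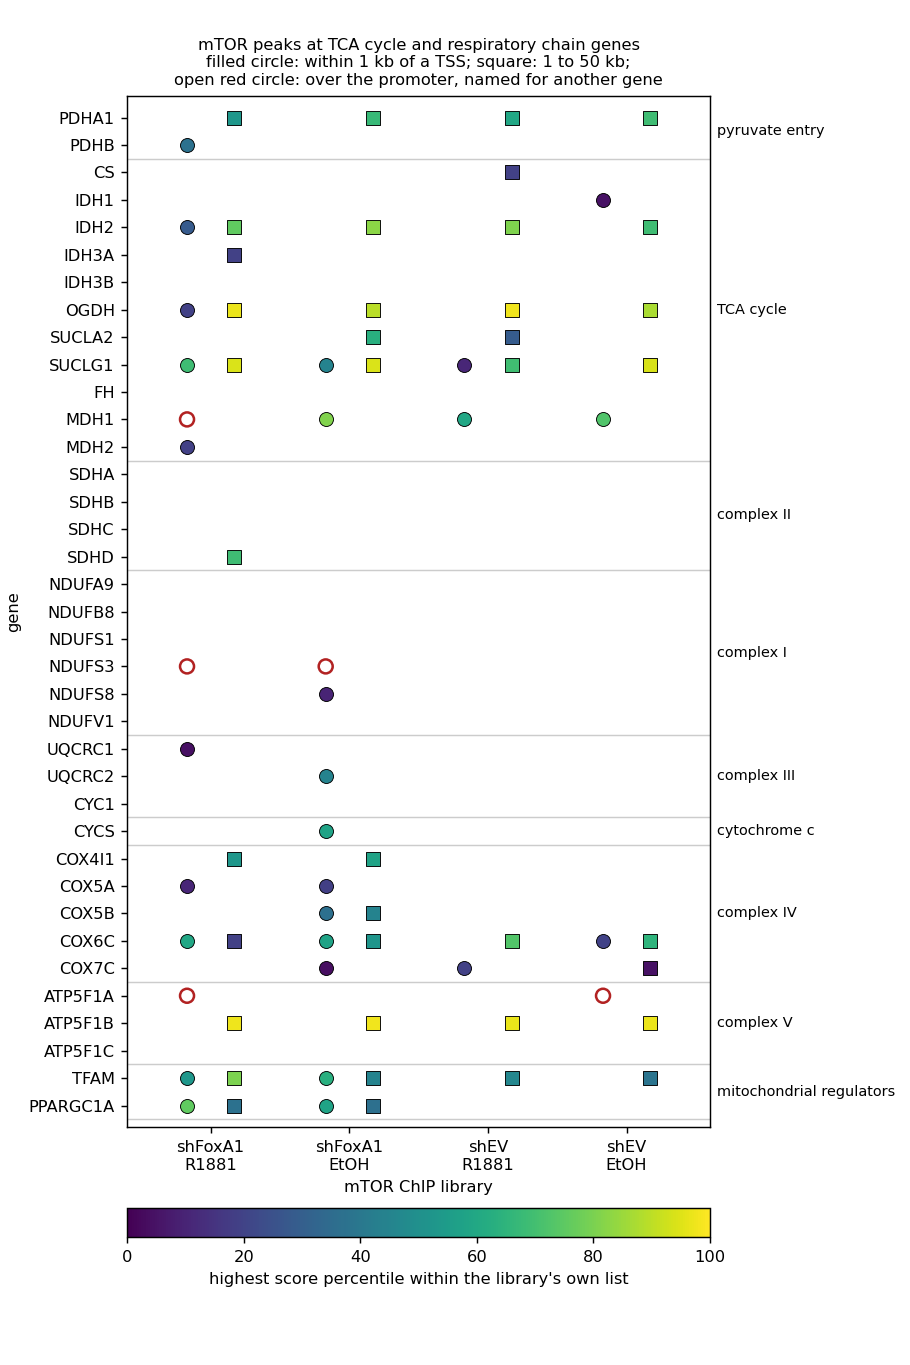
Genes are rows and the 4 mTOR ChIP libraries are columns; filled circles are promoter peaks, squares are peaks 1 to 50 kb away, and colour is the highest score percentile within the library's own list. Open red circles are peaks over the promoter that the annotation named for another gene, as at MDH1, NDUFS3 and ATP5F1A; the rows of these complex I and II genes are nearly empty, and promoter peaks sit mainly in the shFoxA1 columns, at 10 and 11 genes in the R1881 and EtOH columns of shFoxA1, against 3 and 3 in those of shEV.

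**Figure D2:**
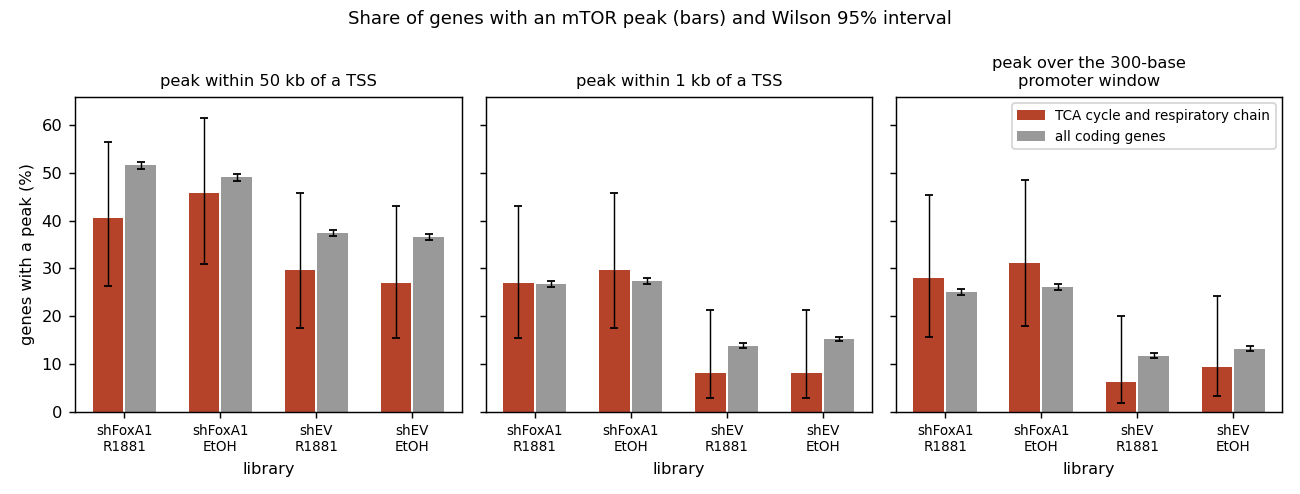
Bars give the percent of genes with a peak in each library, red for the TCA cycle and respiratory chain genes and grey for all coding genes, with Wilson 95% intervals. In each of the 3 panels (within 50 kb, within 1 kb, over the 300-base promoter window) the grey bar lies inside the interval of the red bar.

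Pyruvate dehydrogenase turns pyruvate into acetyl-CoA, and its alpha and beta subunits were bound in different ways. PDHA1, the alpha subunit of the catalytic component, had a peak about 27.7 kb upstream in an L1MA9 LINE element (chrX:19316017-19316445), with scores of 65 (percentile 52.9) in shFoxA1 R1881, 94 (67.4) in shFoxA1 EtOH, 76 (59.7) in shEV R1881 and 95 (69.1) in shEV EtOH. It was of middling rank in each list. A second peak, 7.1 kb upstream in an LTR82B element, was listed in shFoxA1 R1881 alone, with a score of 34. PDHB, the beta subunit, had 1 peak, centred 2 bp from its TSS (chr3:58433504-58434164) and listed in shFoxA1 R1881 alone with a score of 49 (percentile 37.4).

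MDH1, the cytosolic malate dehydrogenase of the malate-aspartate shuttle, was the only gene of the 37 with a promoter region, named for it in at least 1 list, that was present in all 4 lists (chr2:63588112-63589220). Its scores were 175 (percentile 86.4) in shFoxA1 R1881, 144 (80.9) in shFoxA1 EtOH, 76 (59.7) in shEV R1881 and 105 (72.6) in shEV EtOH. In shFoxA1 R1881 the annotation named the peak for WDPCP, which starts 486 bp away on the other strand, so by gene name MDH1 was in 3 lists. The peak cannot be assigned to either gene. MDH2, the mitochondrial malate dehydrogenase, had a promoter peak in shFoxA1 R1881 alone (chr7:76047876-76048298), with a score of 34 at percentile 19.2. The annotation named this peak for MDH2, but STYXL1 starts on the other strand, closer to MDH2 than WDPCP is to MDH1. The MDH2 peak likewise cannot be assigned to either gene of its pair.

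SUCLG1, the alpha subunit of succinyl-CoA ligase, had the most peaks of the cycle genes. Its promoter peak (chr2:84459160-84459898) was listed in 3 libraries, with scores of 92 (percentile 69.1) in shFoxA1 R1881, 58 (44.8) in shFoxA1 EtOH and 27 (10.6) in shEV R1881. No peak was listed there in shEV EtOH. Upstream, a stretch annotated as the ERVK elements HERVK14-int and LTR14B carried a peak in all 4 lists at each of 2 places. The nearer (chr2:84470518-84471561, 11.5 to 11.8 kb from the TSS) had scores of 319 (percentile 93.9) in shFoxA1 R1881, 272 (91.6) in shFoxA1 EtOH, 50 (38.0) in shEV R1881 and 67 (54.1) in shEV EtOH. It ranked high in both shFoxA1 lists and in the middle of both shEV lists. The farther (chr2:84476399-84477715, 17.6 to 17.9 kb) had scores of 345 (percentile 94.5) in shFoxA1 R1881, 361 (94.4) in shFoxA1 EtOH, 95 (69.3) in shEV R1881 and 340 (94.1) in shEV EtOH. It stood lower in the shEV R1881 list than in the other 3. Between them, 2 peaks in HERVK14-int were listed in shFoxA1 R1881 alone, with scores of 27 and 49. SUCLA2, the ATP-forming beta subunit of the same enzyme, had 1 Alu-borne peak 30.0 kb inside the gene in shFoxA1 EtOH (score 84) and another about 17 kb upstream in shEV R1881 (score 42).

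OGDH, the E1 component of the 2-oxoglutarate dehydrogenase complex, held the highest-ranking peak of the set in the shEV R1881 list, while ATP5F1B held it in the other 3. The OGDH peak lay in the first intron, 3.2 to 3.3 kb from the TSS, in an L1MD1 LINE element (chr7:44609357-44610464). Its scores were 508 (percentile 96.9) in shFoxA1 R1881, 235 (89.8) in shFoxA1 EtOH, 682 (98.0) in shEV R1881 and 191 (87.2) in shEV EtOH. The peak spanned 1067 bp in shFoxA1 R1881, against 499 bp in shFoxA1 EtOH, and 1071 bp in shEV R1881, against 551 bp in shEV EtOH. In both lines it was thus wider in the R1881 list than in the EtOH list, with no replicate to set the spread. Peaks of score 34 at 579 bp upstream (chr7:44605615-44606482) and 965 bp downstream (chr7:44607089-44608096) were listed in shFoxA1 R1881 alone.

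IDH2, the mitochondrial NADP-dependent isocitrate dehydrogenase, had a peak 12.2 to 12.4 kb upstream beside or in an LTR8B element in all 4 lists (chr15:90114466-90115263). Its scores were 83 (percentile 64.7) in shFoxA1 R1881, 155 (82.6) in shFoxA1 EtOH, 135 (80.5) in shEV R1881 and 95 (69.1) in shEV EtOH, in no order that follows the androgen or the hairpin. A peak 4.3 to 4.7 kb into the gene (chr15:90095649-90096748) had scores of 112 in shFoxA1 R1881, 58 in shFoxA1 EtOH and 20 in shEV R1881, and none was listed in shEV EtOH. The IDH2 promoter carried a peak in shFoxA1 R1881 alone (chr15:90102584-90102967, score 41). IDH1, its cytosolic counterpart, had a promoter peak in shEV EtOH alone (chr2:208254087-208254439), with a score of 20 at percentile 4.4. CS, citrate synthase, had 1 intronic peak 6.39 kb from its TSS in shEV R1881 (score 34), and IDH3A, a catalytic subunit of the NAD-dependent enzyme, had 1 in an L1PA3 element 39.0 kb away in shFoxA1 R1881 (score 34). Of the 11 genes grouped as cycle enzymes, with the cytosolic IDH1 and MDH1 among them, 5 in shFoxA1 R1881 had a peak within 50 kb. The count was 5 in shFoxA1 EtOH, 6 in shEV R1881 and 5 in shEV EtOH. Among coding genes the share within 50 kb lay between 36.5% and 51.6%. A promoter peak was listed at 4 of the 11 in shFoxA1 R1881, 2 in shFoxA1 EtOH, 2 in shEV R1881 and 2 in shEV EtOH. Those in shEV EtOH were IDH1 and MDH1. Among coding genes the promoter share was 26.8% in shFoxA1 R1881, 27.4% in shFoxA1 EtOH, 13.8% in shEV R1881 and 15.2% in shEV EtOH. Counts over 11 genes are too small to set these enzymes apart.

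The genes of complex I, which oxidises NADH, and of complex II, succinate dehydrogenase, that belong to the set had few peaks. Of 6 complex I genes, 1 had a peak named for it, in 1 list: NDUFS8, an iron-sulfur subunit, 602 bp upstream in shFoxA1 EtOH (chr11:68029914-68030245, score 27, percentile 10.1). Of 4 complex II genes, 1 had a peak, in 1 list: SDHD, a membrane anchor, 24.2 kb away in an L1M2 element in shFoxA1 R1881 (score 92). With so few genes, these counts do not separate them from the rest of the set. Of 31 further complex I genes, 58.1% had a peak in shFoxA1 R1881 and 45.2% in shFoxA1 EtOH. The shares were 38.7% in shEV R1881 and 32.3% in shEV EtOH. For all coding genes they lay between 36.5% and 51.6%.

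In complex III, which passes electrons to cytochrome c, both core proteins had a promoter peak in a single list. UQCRC1 had it in shFoxA1 R1881 (chr3:48609617-48609917, score 20, percentile 4.0) and UQCRC2 in shFoxA1 EtOH (chr16:21952951-21953344, score 58, percentile 44.8). CYCS, cytochrome c itself, had a promoter peak centred 1 bp from the TSS in shFoxA1 EtOH alone (chr7:25125184-25125537), with a score of 75 at percentile 58.1. That peak covered the NRF1 letters printed above.

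Complex IV, cytochrome c oxidase, had a peak at each of its 5 genes in at least 1 list. Within 50 kb, 3 genes had one in shFoxA1 R1881, 5 in shFoxA1 EtOH, 2 in shEV R1881 and 2 in shEV EtOH. A promoter peak was listed at 2 genes in shFoxA1 R1881, 4 in shFoxA1 EtOH, 1 in shEV R1881 and 1 in shEV EtOH. Of 11 further complex IV genes, 45.5% in shFoxA1 R1881, 36.4% in shFoxA1 EtOH, 36.4% in shEV R1881 and 45.5% in shEV EtOH had a peak within 50 kb. Among coding genes the share lay between 36.5% and 51.6%. Promoter shares of the 11 were 9.09% in shFoxA1 R1881, 18.2% in shFoxA1 EtOH, 18.2% in shEV R1881 and 9.09% in shEV EtOH. Those of coding genes were 26.8% in shFoxA1 R1881, 27.4% in shFoxA1 EtOH, 13.8% in shEV R1881 and 15.2% in shEV EtOH. Counts over 5 genes are too small to set complex IV apart from these. COX6C, a small structural subunit, had a promoter peak with scores of 74 in shFoxA1 R1881, 75 in shFoxA1 EtOH and 34 in shEV EtOH (chr8:99893331-99894242), and none in shEV R1881. An L1MB2 element in its last intron, 11.8 kb from the TSS, had scores of 58 in shFoxA1 EtOH, 42 in shEV R1881 and 85 in shEV EtOH. An SVA_C element 33.4 to 33.8 kb upstream had scores of 34 in shFoxA1 R1881 and 66 in shFoxA1 EtOH. Further COX6C peaks of score 34 lay 9.5 kb upstream in an L1PA7 element and 23.7 kb downstream in shFoxA1 EtOH, and one of score 104 lay 38.1 kb upstream in an AluJr4 element in shEV R1881. COX5A, another nuclear-encoded subunit, had a peak in the CpG-rich start of its first intron in both shFoxA1 lists (chr15:74937483-74937998), with scores of 27 (percentile 10.6) in shFoxA1 R1881 and 21 (3.8) in shFoxA1 EtOH. A second COX5A peak, 438 bp upstream, was listed in shFoxA1 EtOH alone (score 34). COX5B, which binds zinc, had a promoter peak in shFoxA1 EtOH alone (chr2:97645984-97646342, score 49, percentile 36.6) and an L1MA2-borne peak 14.1 kb upstream in the same list (score 58). COX7C had a promoter peak of score 21 in shFoxA1 EtOH (chr5:86617960-86618320) and a different one, of score 34 in an AluSx element, in shEV R1881 (chr5:86618618-86619031). In shEV EtOH its 1 peak lay 36.2 kb upstream in an L1PA5 element (score 20). COX4I1, the regulatory subunit IV, had a peak 34.8 to 34.9 kb downstream in an MLT1J element, with scores of 49 in shFoxA1 R1881 and 75 in shFoxA1 EtOH. Further COX4I1 peaks at 8.9 kb (score 65) and 21.4 kb (score 41) were listed in shFoxA1 R1881 alone.

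In complex V, the ATP synthase, peaks were named for 1 gene and lay away from its promoter. ATP5F1B, the catalytic beta subunit, had a peak 7.9 to 8.4 kb upstream in a MER11B element, an ERVK long terminal repeat (chr12:56653151-56655419). Its scores were 594 (percentile 97.5) in shFoxA1 R1881, 689 (97.9) in shFoxA1 EtOH, 490 (96.8) in shEV R1881 and 549 (97.2) in shEV EtOH. It stood near the top of every list, with the narrowest range of percentiles among the regions present in all 4 lists. A weak peak in an SVA_B element 5.9 kb upstream was listed in shEV EtOH alone (score 20).

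TFAM packages mitochondrial DNA and starts its transcription. The TFAM promoter carried a peak in both shFoxA1 lists (chr10:58384894-58385648) with scores of 65 (percentile 52.9) in shFoxA1 R1881 and 84 (63.1) in shFoxA1 EtOH. No promoter peak was listed in either shEV library. An L1PA5 element about 33 kb downstream (chr10:58418012-58419345) carried peaks in all 4 lists, with highest scores of 132 (percentile 80.4) in shFoxA1 R1881, 58 (44.8) in shFoxA1 EtOH, 58 (46.2) in shEV R1881 and 50 (38.4) in shEV EtOH. A further TFAM peak, 21.7 kb upstream, was listed in shFoxA1 R1881 alone (score 57). PPARGC1A encodes PGC-1alpha, the coactivator that drives mitochondrial biogenesis. Its upstream promoter carried a peak in both shFoxA1 lists (chr4:24472564-24473360), with scores of 112 (percentile 75.7) in shFoxA1 R1881 and 75 (58.1) in shFoxA1 EtOH. A second peak, about 2 kb into the gene in a CpG island, had scores of 49 in shFoxA1 R1881 and 27 in shFoxA1 EtOH. Neither was listed in the shEV libraries, and a further peak, 40.9 kb upstream of another PPARGC1A start, was listed in shFoxA1 EtOH alone (score 49). By gene name, TFAM, PPARGC1A and COX5A had a promoter region in both shFoxA1 lists and no shEV list. These are 3 of 20 promoter regions (15.0%), near the 13.9% of all coding promoter regions.

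**Figure D3:**
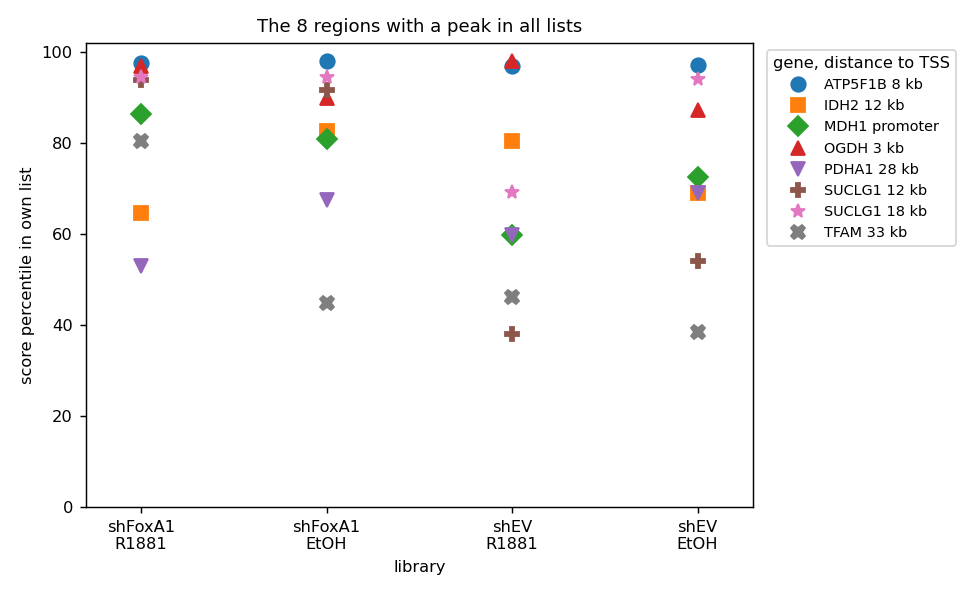
The vertical axis is the score percentile within each library's own list, and symbols are the 8 regions with a peak in all 4 lists. ATP5F1B stays between 96.8 and 97.9 and OGDH between 87.2 and 98.0, while the SUCLG1 region at 12 kb ranges between 38.0 and 93.9.

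The gene name in the annotation hid some promoter peaks, since it goes to the nearest TSS only. Over the 300-base RefSeq windows of the 32 genes in the promoter table, a peak under any gene name lay at 9 genes (28.1%) in shFoxA1 R1881, 10 (31.2%) in shFoxA1 EtOH, 2 (6.25%) in shEV R1881 and 3 (9.38%) in shEV EtOH. Among 15843 coding genes the share was 25.0% in shFoxA1 R1881, 26.1% in shFoxA1 EtOH, 11.7% in shEV R1881 and 13.2% in shEV EtOH, again near that of the set. NDUFS3, a subunit of complex I, has KBTBD4 starting 104 bp away. Peaks named KBTBD4 lay over its window with scores of 41 in shFoxA1 R1881 and 75 in shFoxA1 EtOH. ATP5F1A, the alpha subunit of ATP synthase, starts 158 bp from HAUS1. Peaks named HAUS1 were listed there in all libraries, with scores of 142 in shFoxA1 R1881, 49 in shFoxA1 EtOH, 85 in shEV R1881 and 58 in shEV EtOH. Those of shFoxA1 R1881 and shEV EtOH reached the ATP5F1A window. A divergent coding neighbour within 1 kb was present at 8 of the 32 genes (25.0%, 13.3 to 42.1), beside 12.3% of coding genes.

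The 88 peaks merged into 50 regions, of which 20 were promoter regions and 30 distal. Of the promoter regions, 14 were in 1 list (70.0%, 48.1 to 85.5, beside 38.5% of coding promoter regions). A further 3 were in 2 lists (15.0%, beside 22.2%) and 2 in 3 lists (10.0%, beside 17.8%). In all 4 lists there was 1 (5.0%, 0.888 to 23.6, beside 21.5%). Of the distal regions, 18 were in 1 list, 3 in 2 lists, 2 in 3 lists and 7 in all 4. No region of the set was shared by the R1881 lists alone, as 5.25% of all coding-gene regions were, and none by the EtOH lists alone, as 2.73% were. The interval for 0 of 50 regions, 0.0 to 7.13%, includes both backgrounds, so these counts are not a result about these genes. Regions in 1 or both shFoxA1 lists and no shEV list were 15 of the 20 promoter regions (75.0%, 53.1 to 88.8) and 16 of the 30 distal regions (53.3%, 36.1 to 69.8). The shares were 46.8% of 8135 coding promoter regions and 41.8% of 20720 distal ones. For promoter regions the background of 46.8% lay under the interval, which covers counting error only and treats regions as independent. OGDH and COX5A each gave more than 1 of the 15. The 20 leave out promoter regions named only for a neighbour, at ATP5F1A (in all 4 lists) and NDUFS3 (in both shFoxA1 lists). This share was 1 of many compared, and it was not tested. Of those 15, 6 were in shFoxA1 R1881 alone, 6 in shFoxA1 EtOH alone and 3 in both. The 3 in both lists were 15.0% of the promoter regions, beside 13.9%, so the higher share came from regions in 1 list. The promoter peaks of these genes had a median score percentile of 36.6, so most ranked in the lower part of their lists. The shFoxA1 lists were also the longer ones, and the part of list length in these shares was not tested. With each list limited to its 20000 highest-scoring peaks, a limit added for promoter peaks after the data were seen, promoter peaks were left at 4 of the 37 genes in shFoxA1 R1881, 7 in shFoxA1 EtOH, 1 in shEV R1881 and 1 in shEV EtOH. Among coding genes that limit left 12.3% in shFoxA1 R1881, 14.7% in shFoxA1 EtOH, 9.33% in shEV R1881 and 11.4% in shEV EtOH. The genes left were COX6C, PPARGC1A, SUCLG1 and TFAM in shFoxA1 R1881, these and CYCS, MDH1 and UQCRC2 in shFoxA1 EtOH, and MDH1 in each shEV list; the MDH1 peak of shFoxA1 R1881 was named for WDPCP.

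The first comparison asks which peaks accompany androgen. With the FoxA1 hairpin, 14 of 30 peaks in R1881 had no overlapping peak in EtOH (46.7%, 30.2 to 63.9), beside 43.1% of peaks near coding genes. They lay at COX4I1, IDH2, IDH3A, MDH2, OGDH, PDHA1, PDHB, SDHD, SUCLG1, TFAM and UQCRC1. In the other direction 12 of 29 peaks in EtOH had none in R1881 (41.4%, 25.5 to 59.3), beside 34.9%. These lay at COX5A, COX5B, COX6C, COX7C, CYCS, NDUFS8, PPARGC1A, SUCLA2 and UQCRC2. Of the peaks at pyruvate and cycle enzymes, 9 of 16 in R1881 had none in EtOH, and 1 of 9 in EtOH had none in R1881. Of those at respiratory chain genes, 4 of 9 in R1881 had none in EtOH, and 10 of 15 in EtOH had none in R1881. This grouping was made after the values were seen, and it has no test. It counts the cytosolic IDH1 and MDH1 with the cycle enzymes, and succinate dehydrogenase with the respiratory chain.

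With the empty vector, 6 of 15 peaks in R1881 had none in EtOH (40.0%, 19.8 to 64.3), beside 46.1%, and 5 of 14 peaks in EtOH had none in R1881 (35.7%, 16.3 to 61.2), beside 42.5%. The R1881 peaks lay at COX6C, COX7C, CS, IDH2, SUCLA2 and SUCLG1, and the EtOH peaks at ATP5F1B, COX6C, COX7C, IDH1 and TFAM. By the same grouping these were 4 of 10 R1881 peaks and 1 of 7 EtOH peaks at pyruvate and cycle enzymes, and 2 of 4 R1881 peaks and 3 of 5 EtOH peaks at respiratory chain genes. All 4 shares of the androgen comparison are near the background, and are not a result about these genes.

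The second comparison asks which peaks accompany the FoxA1 hairpin. In R1881, 21 of 30 shFoxA1 peaks had no overlapping shEV peak (70.0%, 52.1 to 83.3), beside 54.6%, and 5 of 15 shEV peaks had no shFoxA1 peak (33.3%, 15.2 to 58.3), beside 25.5%. In EtOH, 19 of 29 shFoxA1 peaks had no shEV peak (65.5%, 47.3 to 80.1), beside 51.2%, and 3 of 14 shEV peaks had no shFoxA1 peak (21.4%, 7.57 to 47.6), beside 25.3%. Each of these 4 intervals includes its background. Among promoter peaks, 10 of 11 shFoxA1 peaks in R1881 (90.9%, 62.3 to 98.4) had no shEV counterpart, beside 58.2% of coding-gene promoter peaks. In EtOH they were 10 of 12 (83.3%, 55.2 to 95.3), beside 55.1%. Most of these peaks are in the shFoxA1-only promoter regions counted above, so they are not a separate observation. The peak at the MDH1 promoter in shFoxA1 R1881 was named for WDPCP, so it is not among the 11. It overlapped the shEV R1881 peak, and counting it would lower the share of 90.9%. Over promoter and distal peaks together, shFoxA1 peaks without a counterpart ranked lower than those with one. Their median percentile was 28.4 in R1881, against 80.4, and 44.8 in EtOH, against 81.7. No such medians are given for all coding-gene peaks, so this is not set apart as a trait of these genes. The 4 comparisons share libraries in pairs and are not independent.

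**Figure D4:**
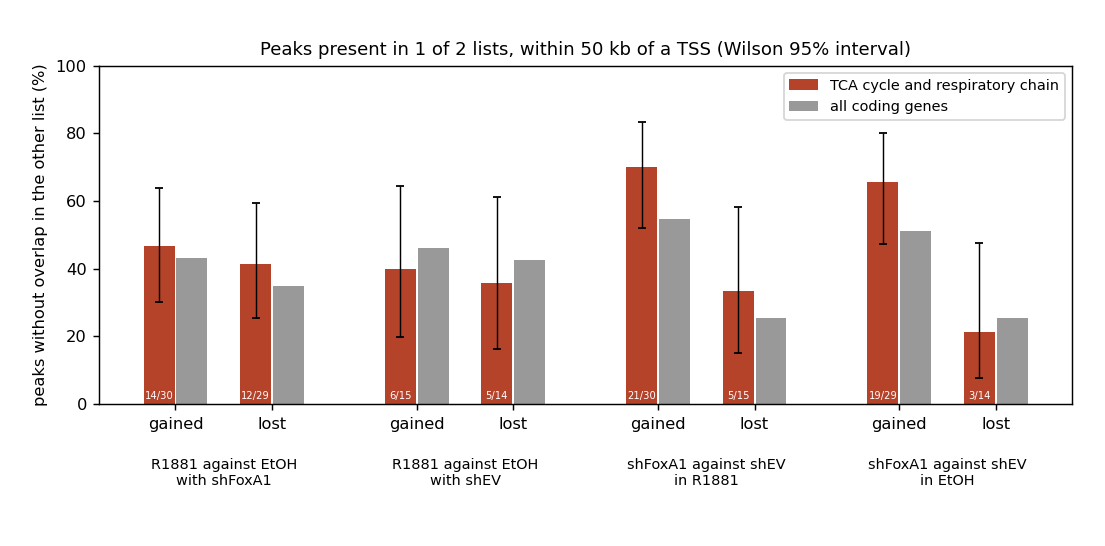
Bars give the percent of peaks without an overlapping peak in the other list, gained meaning present in the first-named library only and lost present in the second only, red for the TCA cycle and respiratory chain genes (Wilson 95% intervals, counts in the bars) and grey for all coding genes. The gained bars of the hairpin comparison stand at 70.0% and 65.5%, beside 54.6% and 51.2%, with intervals that include the grey bars.

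Promoter and distal peaks of these genes differed in sequence context. Promoter peaks were 29 of the 88 (33.0%, beside 29.7% of coding-gene peaks), with a median GC content of 59.3%, against 42.9% for the 59 distal peaks, beside 65.0% and 43.9% for promoter and distal peaks of all coding genes. Of the distal peaks, 52 had their centre in a repeat (88.1%, beside 70.8%): 23 in LINE, 20 in LTR, 4 in SVA retroposon, 4 in SINE and 1 in DNA elements. The same region counts once per list here, so these are not 59 separate sites. Reads in repeats can map to more than 1 copy, and their handling is not stated in the sources used here. With the 4 lists pooled, distal peaks ranked at a median percentile of 52.9, against 36.6 for promoter peaks, beside 52.0 and 38.4 for coding-gene peaks. By list, the promoter median was 28.4 in shFoxA1 R1881, beside 45.6 for coding-gene promoter peaks, and 44.8 in shFoxA1 EtOH, beside 44.8. It was 19.3 in shEV R1881, beside 38.0, and 19.8 in shEV EtOH, beside 38.4, from 3 promoter peaks in each. These differences were not tested.

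**Figure D5:**
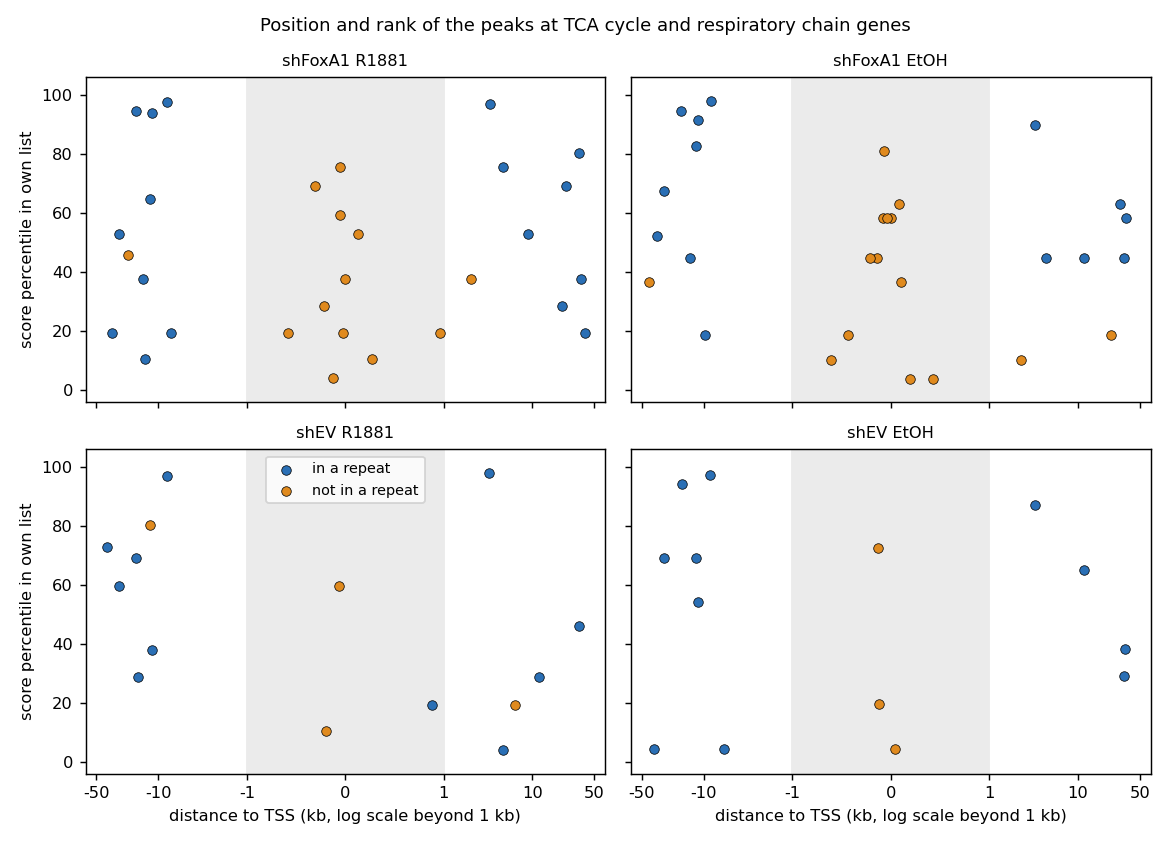
Each point is 1 peak, with distance to the TSS in kb (linear within 1 kb, log beyond, shaded band within 1 kb) and score percentile within the library's own list. Peaks in repeats (blue) lie almost all beyond 1 kb and include those above the 90th percentile at ATP5F1B, OGDH and SUCLG1. Promoter peaks named for these genes reach at most 80.9. Peaks over their promoters named for another gene are not plotted, such as that at MDH1 in shFoxA1 R1881 (percentile 86.4).

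Letters of known factors were searched on both strands of the 32 promoter windows, and the share of 15843 coding promoters with the same letters is given beside each count. NRF1 letters (GCGCATGC) were in 5 windows (15.6%, beside 4.89%), ETS letters (CCGGAAG) in 9 (28.1%, beside 16.5%), YY1 letters (AAGATGG) in 9 (28.1%, beside 7.9%) and ERR letters (CAAGGTCA) in 1 (3.12%, beside 1.37%). The ETS and YY1 letters can overlap by AAG. The forkhead letters TGTTTAC, the class that FoxA1 reads, were in 0 windows (beside 3.75%), the androgen receptor half-site AGAACA in 3 (9.38%, beside 14.9%) and the E-box CACGTG in 2 (6.25%, beside 10.9%). Of the windows with a peak, COX5B and CYCS held NRF1 letters, COX5B, MDH2 and NDUFS3 ETS letters, COX7C, PDHB, UQCRC1 and UQCRC2 YY1 letters, and PDHB and PPARGC1A E-boxes. The COX5B peak covered its ETS letters but did not reach its NRF1 letters. A match of letters is not a binding site.

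Of 134 further genes of the same pathways, a peak lay within 50 kb of 82 (61.2%) in shFoxA1 R1881, 75 (56.0%) in shFoxA1 EtOH, 57 (42.5%) in shEV R1881 and 60 (44.8%) in shEV EtOH. A promoter peak was listed at 55 (41.0%) in shFoxA1 R1881, 49 (36.6%) in shFoxA1 EtOH, 30 (22.4%) in shEV R1881 and 33 (24.6%) in shEV EtOH. For all coding genes the promoter share was 26.8% in shFoxA1 R1881, 27.4% in shFoxA1 EtOH, 13.8% in shEV R1881 and 15.2% in shEV EtOH, and the share within 50 kb was between 36.5% and 51.6%. The shares of the 134 genes lay above these in each library, a difference that was not tested. Among 31 further complex I genes, a promoter peak was listed at 13 (41.9%) in shFoxA1 R1881, 10 (32.3%) in shFoxA1 EtOH, 6 (19.4%) in shEV R1881 and 7 (22.6%) in shEV EtOH. The highest-scoring promoter peaks among the 134 genes were at NDUFS7, an iron-sulfur subunit of complex I (chr19:1382963-1384092), with scores of 684 in shFoxA1 R1881, 1038 in shFoxA1 EtOH, 462 in shEV R1881 and 638 in shEV EtOH. COX19, a complex IV assembly factor, had scores of 384 in shFoxA1 R1881, 361 in shFoxA1 EtOH and 203 in shEV EtOH, and no peak in shEV R1881. POLG, the mitochondrial DNA polymerase, had scores of 306 in shFoxA1 R1881, 223 in shFoxA1 EtOH, 146 in shEV R1881 and 251 in shEV EtOH. The complex I genes NDUFA11, NDUFA6 and NDUFA12, the pyruvate dehydrogenase phosphatase PDP1 and the assembly factor COA7 each had a promoter peak in all 4 lists, with highest scores between 197 and 247.

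The limit of 50 kb left out 30 peaks named for these genes, of which 15 were at PPARGC1A, 4 at OGDH and 4 at COX7C. Just inside it lay peaks at PPARGC1A (40.9 kb upstream, score 49, shFoxA1 EtOH), IDH3A (39.0 kb) and COX6C (38.1 kb upstream, score 104, shEV R1881). Just outside lay an OGDH peak at 54.7 to 54.8 kb in all 4 lists, with scores of 92 in shFoxA1 R1881, 103 in shFoxA1 EtOH, 67 in shEV R1881 and 76 in shEV EtOH, and a TFAM peak at 54.7 kb in shEV EtOH, with a score of 20.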

How the data were processed

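Chromatin of LNCaP cells was immunoprecipitated with an mTOR antibody and sequenced as paired-end reads, per the labels' protocols. The 4 mTOR libraries have peak lists; the 4 input libraries are not analysed here. The submitters' processing notes name HOMER 4.11.1, MACS2, deepTools 3.5.0, Picard 2.0.1, BWA 0.7.12, Trimmomatic 0.36 and build hg38, without their roles. The sources used here do not state the control, the threshold or how duplicates were handled. Per the file headers, each deposited list gives for each peak a score, the authors' own value whose definition is not stated, the nearest gene and the distance to its TSS. GC content was deposited as a fraction per peak, per the file headers, and is printed as a percent.

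From these lists, peaks on chromosomes 1 to 22, X and Y were taken, counted from 1, with pandas 2.3.3 and scipy 1.17.1 (Python 3.11.15). Peaks of different lists were matched by an overlap of at least 1 bp, and the matching was tested on simulated data. A score percentile is the rank of a peak's score among all peaks of its own list. The deposited distance came within 2 bp of a RefSeq start for 76.0% of the peaks named for a coding gene in the promoter table. Promoter windows are RefSeq's; OGDH, COX6C, CYC1, SDHC and ATP5F1B have no entry in the table used. No gene carried an older ATP synthase symbol. The genes and lists were chosen with earlier results of these data known. Described in full are genes with a promoter peak or with a peak in all 4 libraries; other genes are given by their highest peak, and of the further pathway genes the 8 with the highest-scoring promoter peaks are named. Alternatives were a limit of 10 kb, the 20000 highest-scoring peaks of each list, no peaks in repeats, an overlap of at least 50% of the peak, and, for promoter peaks, the promoter window under any gene name.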

Additional observations from a re-analysis of the deposited data

Results flagged for a closer look

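Each list also held 1 peak over the whole mitochondrial genome, which belongs to no comparison above. Its scores were 15578 in shFoxA1 R1881, 16246 in shFoxA1 EtOH, 15315 in shEV R1881 and 15546 in shEV EtOH. By score it ranked 17 of 40108 listed peaks in shFoxA1 R1881, 18 of 35687 in shFoxA1 EtOH, 17 of 26616 in shEV R1881 and 17 of 25504 in shEV EtOH. It spans positions 1 to 16569, so it does not resolve the mitochondrially encoded respiratory chain genes. The input level over the mitochondrial genome is not analysed here, and the part of its copy number in the score was not tested.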

How the results depend on the processing

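Counts not given here were within 1.5 times the reported count. With the 20000 highest-scoring peaks, genes with a promoter peak became 4 in shFoxA1 R1881, 7 in shFoxA1 EtOH, 1 in shEV R1881 and 1 in shEV EtOH. Within 10 kb, 7 genes had a peak in shEV R1881 and 5 in shEV EtOH. Without repeat peaks, 11 genes had one in shFoxA1 EtOH, 4 in shEV R1881 and 3 in shEV EtOH. For R1881 against EtOH with shFoxA1, 14 gained and 12 lost peaks became 8 and 7 within 10 kb and 2 and 6 with the highest-scoring peaks, and gained peaks became 7 without repeats. With shEV, 6 gained and 5 lost became 2 and 1 with the highest-scoring peaks and 3 and 2 without repeats, and lost peaks became 3 within 10 kb. For shFoxA1 against shEV in R1881, 21 gained and 5 lost became 13 and 2 within 10 kb, 7 and 3 with the highest-scoring peaks, and 12 and 2 without repeats. In EtOH, 19 gained and 3 lost became 10 and 0 with the highest-scoring peaks, and lost peaks became 1 without repeats. A narrower limit or shorter list leaves fewer peaks to count. An overlap of at least 50% of the peak left each of these counts within 1.5 times. The promoter alternatives were chosen after seeing the data. No paired analysis was possible because each group is 1 library and no test was made. Without read totals, a peak missing from a shorter list may lie below what that library could show.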
